A study of Mus musculus with 19 samples.

Results

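The genes described here are 40 interferon-stimulated effector genes, those whose proteins carry out antiviral and antimicrobial defence after interferon signalling. They were chosen by symbol from a list of such genes, and all 40 were found among the 33559 genes of 1 bulk RNA-seq table. The table holds 5 libraries of mouse bone marrow monocytes, the blood cell type that gives rise to many tissue macrophages. According to the labels all 5 came from wild-type animals, 2 with no treatment (control replicates 1 and 2) and 3 with G-CSF (G-CSF replicates 1, 2 and 3). G-CSF is the cytokine that drives granulocyte production. The sources used here do not give dose, duration, route, strain or age. How the monocytes were isolated was not given either. Another 14 libraries of the series, single-cell data from skin, are not analysed here. Nothing in the labels ties a replicate to its own animal or culture, and each p-value therefore covers only the variation among these libraries, part or all of which may be technical.

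Type I interferons signal through the receptor chains Ifnar1 and Ifnar2 to a transcription factor complex that binds the interferon-stimulated response element, a short motif in the promoters of many interferon-stimulated genes. Interferon gamma signals through Ifngr1 and Ifngr2 to a different motif, and is the stronger inducer of the guanylate-binding protein (GBP) and immunity-related GTPase (IRG) families, which attack the vacuoles of intracellular pathogens. The G-CSF receptor signals mainly through Stat3.

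Levels are the FPKM values deposited by the authors, in which fragment numbers are divided by gene length and by library size. Because FPKM values moved in steps of 1 read, the reads behind most values could be read back. These sum to at least 5981805 and 2923773 in control replicates 1 and 2, and to between 5911052 and 6988609 in the G-CSF libraries. Markers set against the label of monocytes gave a mixed picture. All 7 classical monocyte markers were at 1 FPKM or more in every library, with a summed level of 1373 to 3741 FPKM in the controls and 3079 to 5594 FPKM with G-CSF. All 10 neutrophil markers were also at 1 FPKM or more in every library, and their sum was 11248 FPKM in control replicate 1 against 2110 FPKM in control replicate 2, with 4211 to 6459 FPKM in the G-CSF libraries. The sum of 8 macrophage markers was 460 and 1472 FPKM in the controls and 687 to 1192 FPKM with G-CSF. C1qb was its largest part in every library, and single markers went both ways. Axl measured 33.3 and 96.4 FPKM against 6.45, 7.03 and 9.38 FPKM (log2 fold change -2.76, limma adjusted p = 0.212). Adgre1 measured 70.6 and 33.7 FPKM against 126, 105 and 124 FPKM (log2 fold change 1.26, limma adjusted p = 0.337). The 6 B cell markers summed to 91.8 to 187 FPKM in the controls and 45.1 to 64.9 FPKM with G-CSF. The 7 T and NK cell markers summed to 3.05 and 6.76 FPKM in the controls and 8.07 to 12.3 FPKM with G-CSF, and Cd3g and Ncr1 were each at 0 in 4 of 5 libraries. Most of that sum was Nkg7, at 5.06 and 1.58 FPKM in the controls and 7.64, 11.7 and 7.90 FPKM with G-CSF (log2 fold change 1.33, limma adjusted p = 0.339). The 5 non-classical monocyte markers summed to 43.6 to 52.9 FPKM in the controls and 41.1 to 44.3 FPKM with G-CSF. The 6 plasmacytoid dendritic cell markers, which include the member Bst2, summed to 19.4 and 26.4 FPKM in the controls and 18.4 to 30.4 FPKM with G-CSF, where Klk1 was at 0 in all 3 G-CSF libraries. The defining Siglech measured 4.45 and 2.90 FPKM in the controls and 0.653 to 1.88 FPKM with G-CSF. Whether any of these cell types contributed to the values below was not tested, and in bulk RNA a change in the number of cells of a type cannot be told apart from a change in RNA per cell.

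As a group the members were low in monocytes without G-CSF and higher with it. Over the 40 genes the median level was 1.35 and 1.28 FPKM in the control libraries and 3.97, 2.71 and 3.21 FPKM in G-CSF replicates 1, 2 and 3. In the controls 24 and 23 of the 40 reached 1 FPKM, and with G-CSF 36, 32 and 35 did. The mean was higher with G-CSF for 37 of 40 members, against 36.3% of all 33503 genes with a value above 0. The 3 others were Cmpk2, Mx2 and Ifi44. For 27 of the 40, all 3 G-CSF libraries lay above both controls, against 11.5% of all genes with a value above 0. Cmpk2 was the only member with all 3 below both controls.

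**Figure D1:**
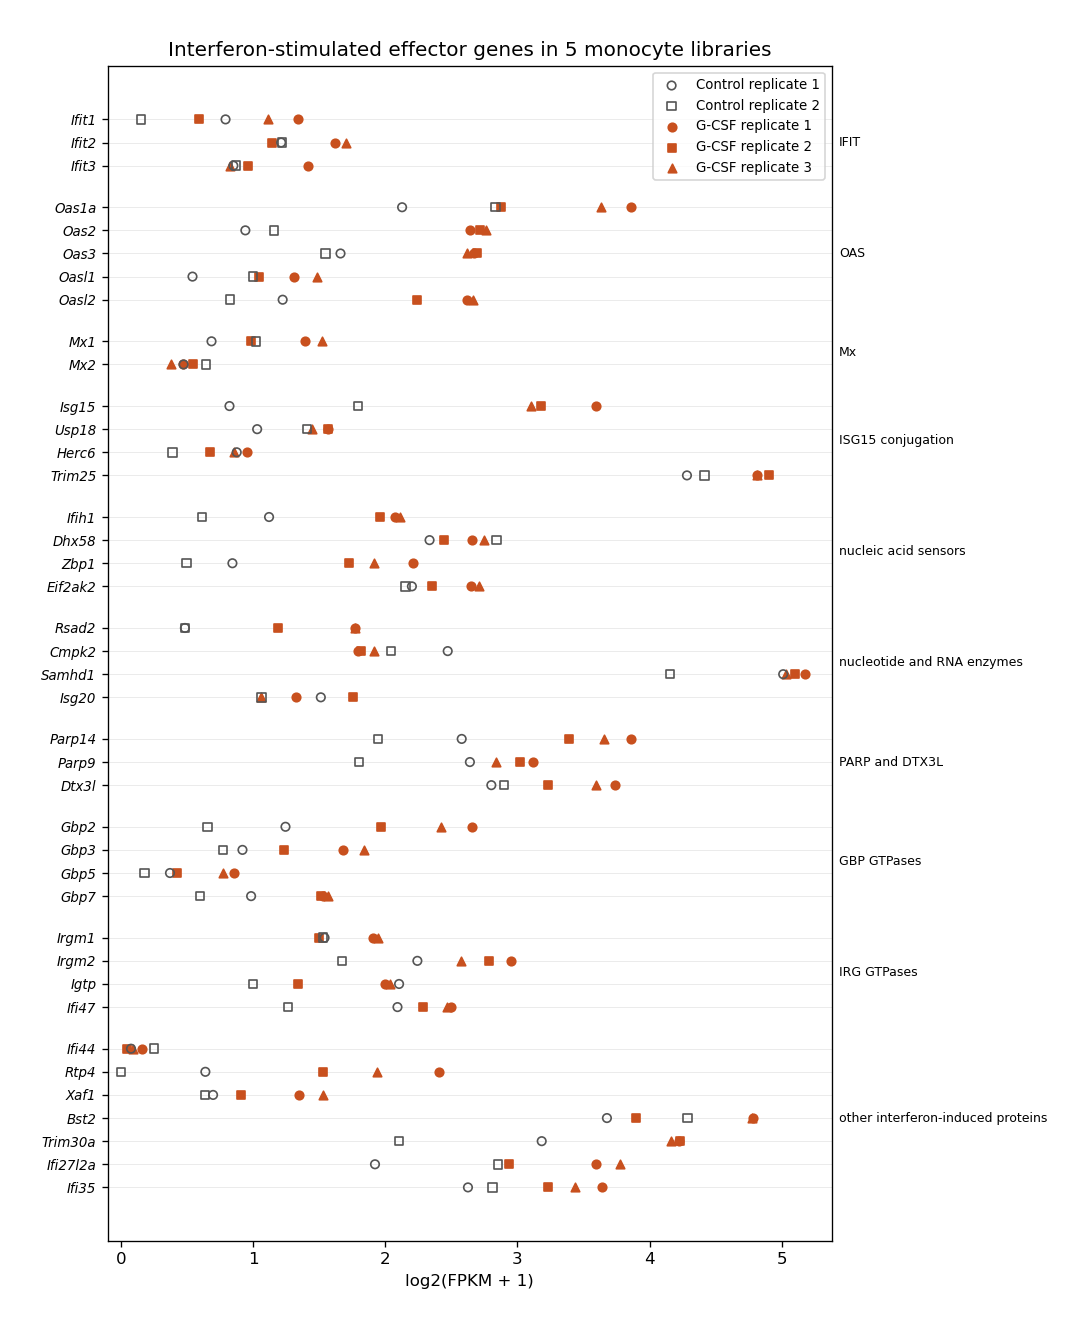
Level of each of the 40 genes in each of the 5 libraries, as log2(FPKM + 1) on the horizontal axis, with the genes on the vertical axis grouped by subfamily. Open marks are the 2 control libraries and filled marks the 3 G-CSF libraries; for 27 genes, all filled marks lie to the right of both open marks.

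Genes with at least 1 FPKM in at least 2 libraries were tested, on log2(FPKM + 1), with limma, a linear model that shares the estimate of spread across genes. This kept 16791 genes and 35 members. Ifit3, Mx2, Herc6, Gbp5 and Ifi44 did not pass the filter. Log2 fold changes below are on the log2(FPKM + 1) scale, G-CSF over control, and understate the change of low genes. A call is a Benjamini-Hochberg adjusted p under 0.05 over all genes tested. By limma 0 of the 35 members were called in either direction, against a background of 0.00596% of all genes called higher (1 of 16791, which is no member) and 0% called lower. At an unadjusted p under 0.05, 17 members were higher, against 7.90% of all genes, and 0 were lower, against 4.76%. That count was 11 of 33 without G-CSF replicate 1, where the share of all genes was 3.14%, and 11 of 33 without G-CSF replicate 3, where it was 3.46%. It was 21 of 35 when protein-coding genes alone were fitted, against 10.4% of those genes. Members that passed the filter only through the G-CSF libraries had to differ, so these counts describe the genes and test nothing.

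A positive log2 fold change was found for 34 of the 35, against 56.3% of all genes. For 26 of the 35 every G-CSF library lay above both controls, against 20.0% of all genes tested, and for 1, Cmpk2, every one lay below, against 11.9%. Their median log2 fold change was 0.74, with a range of -0.42 to 1.99, and the median over all genes tested was 0.08. The smallest adjusted p was 0.162, for Oas2. Oas2 was called when the 10524 protein-coding genes were tested alone (limma adjusted p = 0.0438), a test in which 0.285% of genes were called higher and 0.0285% lower. Leaving out control replicate 2 from that test gave calls for Oas2 and Isg15, with 1.08% of genes called higher and 0.350% lower. With voom, the limma method for counts, on the recovered reads, 0 of 33 members were called, against 0.0544% of genes called higher and 0.0136% lower. Isg15 and Mx1 were not in that fit, because the annotated gene length gave no whole reads for them. By voom 17 members were higher with an unadjusted p under 0.05, against 7.67% of genes.

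The number of calls depended on the controls. Without control replicate 1, which leaves 1 control library that is assumed to vary like the G-CSF libraries, 15 members were called higher by limma. In that fit 17.7% of all genes were called higher and 12.4% lower, and 27.9% were higher at an unadjusted p under 0.05. Without control replicate 2, 0 members and 0% of genes were called, and at an unadjusted p under 0.05 16 members were higher, against 11.2% of all genes.

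**Figure D2:**
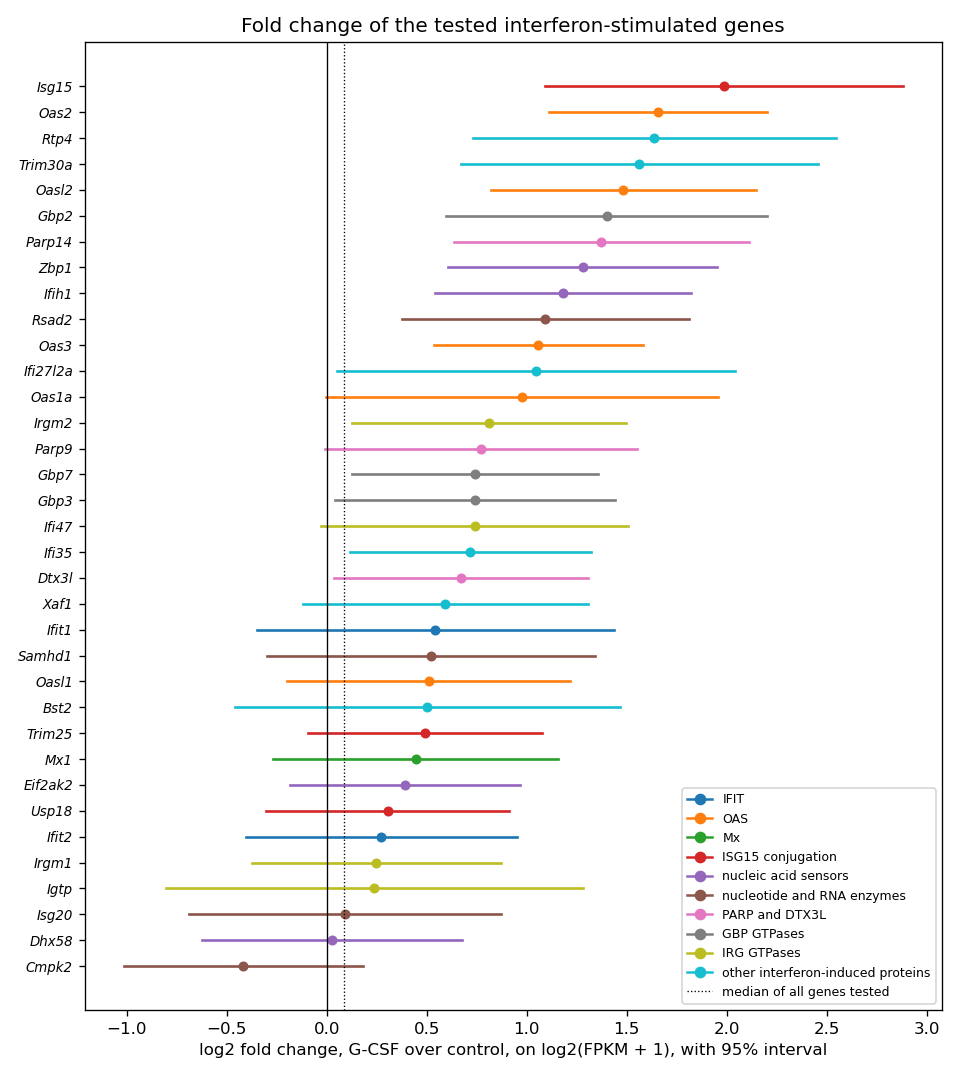
Log2 fold change with G-CSF on the log2(FPKM + 1) scale for the 35 tested members, as points with 95% intervals from limma, ordered by size and coloured by subfamily. The dotted line is the median of all 16791 genes tested, 0.08; Isg15 at 1.99 stands at the top and Cmpk2 at -0.42 at the bottom.

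Promoters were read for the motifs through which these genes are known to respond. Windows from 250 bases before to 50 bases after the annotated start, from RefSeq on GRCm38.p6, were matched for 30 members, in 35 windows. The core of the interferon-stimulated response element, GAAA, any 2 bases and GAAA on either strand, was present for 17 of the 30, in 51.4% of member windows and 3.44% of all 32851 windows. The STAT core, TTC, any 3 bases and GAA, which reads the same on both strands, was present for 11 members, in 31.4% of member windows and 8.30% of all windows. The genes were listed as interferon-inducible, so these shares describe the list. Of the 8 GBP and IRG members 7 had the response element core, as had 10 of the 22 other members with a window. A match is a description of the letters only.

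The windows below belong to the members with the smallest p of their subfamily, where one was listed, and to Cmpk2 and Igtp, which are compared with their neighbours. Each holds the 250 bases before the start on GRCm38.p6, written 5′ to 3′ on the strand of the gene in lower case, with both kinds of motif in capitals. In Isg15 3 response element cores overlap in 1 run. Ifit1 has 2 cores and Gbp2 and Rsad2 have 1 each, all on the opposite strand, so that the capitals are the reverse complement. Irgm2 and Igtp hold a STAT core followed by a response element core whose first base lies 11 bases further on. In the window of Cmpk2 neither motif was found.
Isg15, chr4:156200819-156201068, minus strand: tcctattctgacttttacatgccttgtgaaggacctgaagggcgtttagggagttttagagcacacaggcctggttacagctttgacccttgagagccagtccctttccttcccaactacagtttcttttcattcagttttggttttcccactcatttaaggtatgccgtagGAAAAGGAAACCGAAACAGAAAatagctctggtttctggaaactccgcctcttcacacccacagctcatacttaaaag
Ifit1, chr19:34640639-34640888, plus strand: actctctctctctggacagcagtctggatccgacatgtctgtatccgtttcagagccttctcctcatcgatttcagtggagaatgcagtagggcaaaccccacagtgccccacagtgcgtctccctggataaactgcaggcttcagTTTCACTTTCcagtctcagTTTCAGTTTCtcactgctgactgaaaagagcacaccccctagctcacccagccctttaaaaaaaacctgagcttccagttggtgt
Gbp2, chr3:142620413-142620662, plus strand: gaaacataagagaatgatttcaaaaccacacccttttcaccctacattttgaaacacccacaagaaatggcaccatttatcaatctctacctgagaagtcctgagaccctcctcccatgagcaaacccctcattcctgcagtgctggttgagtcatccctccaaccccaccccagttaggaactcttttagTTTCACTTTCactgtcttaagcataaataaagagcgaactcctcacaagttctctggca
Rsad2, chr12:26456453-26456702, minus strand: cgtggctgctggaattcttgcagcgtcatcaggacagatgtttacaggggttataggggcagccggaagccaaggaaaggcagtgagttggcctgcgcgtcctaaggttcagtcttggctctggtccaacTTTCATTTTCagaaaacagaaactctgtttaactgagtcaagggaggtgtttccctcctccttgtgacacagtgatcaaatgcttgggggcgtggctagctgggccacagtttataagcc
Cmpk2, chr12:26468965-26469214, plus strand: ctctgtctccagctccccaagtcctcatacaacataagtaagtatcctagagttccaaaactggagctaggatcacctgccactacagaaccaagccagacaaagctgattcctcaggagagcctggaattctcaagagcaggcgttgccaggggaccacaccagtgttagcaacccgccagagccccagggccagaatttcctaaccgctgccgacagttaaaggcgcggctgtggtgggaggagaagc
Irgm2, chr11:58214727-58214976, plus strand: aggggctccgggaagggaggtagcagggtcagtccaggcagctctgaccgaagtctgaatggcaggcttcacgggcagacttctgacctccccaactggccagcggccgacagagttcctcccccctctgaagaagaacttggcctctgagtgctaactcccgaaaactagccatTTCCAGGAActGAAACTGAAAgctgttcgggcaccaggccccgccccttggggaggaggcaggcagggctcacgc
Igtp, chr11:58199306-58199555, plus strand: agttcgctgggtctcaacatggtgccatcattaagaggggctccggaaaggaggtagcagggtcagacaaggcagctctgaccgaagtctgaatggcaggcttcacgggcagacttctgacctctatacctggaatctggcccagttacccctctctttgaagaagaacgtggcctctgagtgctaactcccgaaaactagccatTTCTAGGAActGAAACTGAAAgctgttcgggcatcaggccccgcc

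**Figure D3:**
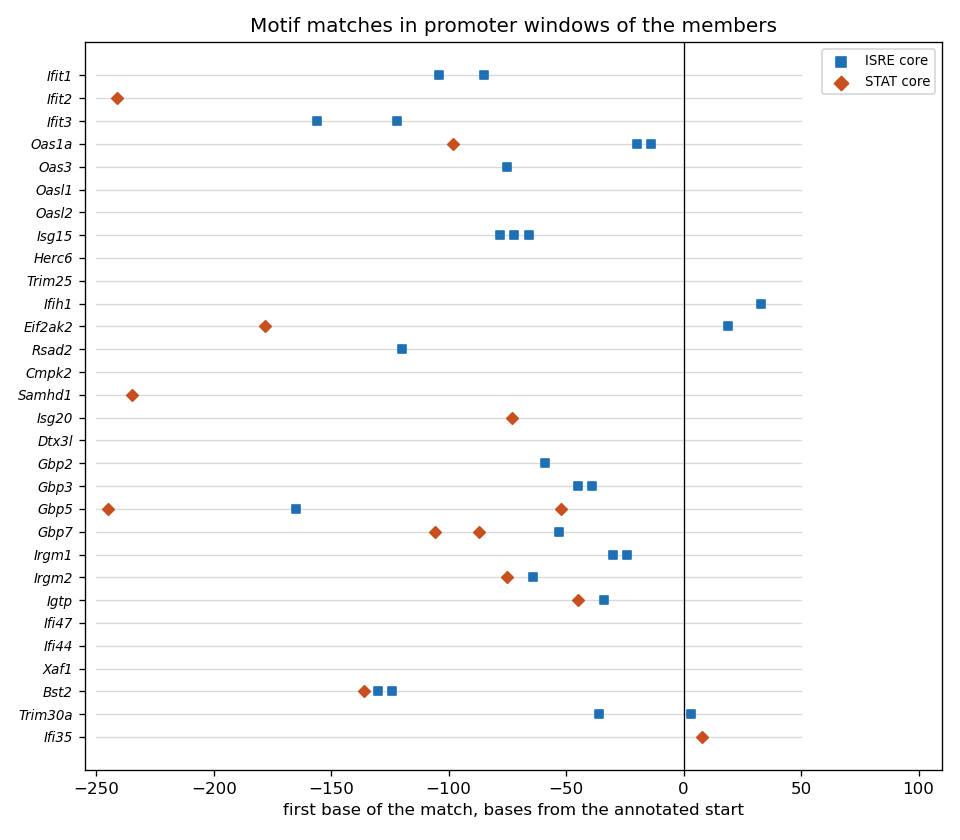
Position of each match to the response element core (squares) and the STAT core (diamonds) in the promoter windows of the 30 members with a window, in bases from the annotated start on the horizontal axis. Members are listed by subfamily on the vertical axis; the GBP and IRG rows hold the response element core in 7 of 8 genes, and 9 members have neither motif.

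The 2'-5' oligoadenylate synthetases make the messenger that activates RNase L, which degrades viral RNA. All 5 members of this family were tested, and in all 5 every G-CSF library lay above both controls. Oas2, on GRCm38 at chr5:120730333-120749853 on the minus strand, measured 0.918 and 1.23 FPKM in control replicates 1 and 2 and 5.23, 5.57 and 5.77 FPKM in G-CSF replicates 1, 2 and 3. The G-CSF values lie close together, and all are well above both controls. Behind them were 38 and 19 reads in the controls and 200, 241 and 192 with G-CSF. Oas2 had a log2 fold change, G-CSF over control, of 1.66 ± 0.22 (SE), with a limma adjusted p of 0.162. Neighbouring Oas3, which lies 3244 bases from Oas2 on the same strand, measured 2.16 and 1.92 FPKM without and 5.36, 5.47 and 5.14 FPKM with G-CSF. This is a log2 fold change of 1.06 ± 0.21 (SE). Both genes had groups that do not overlap and G-CSF libraries that hardly differ from one another. Oasl2, an OAS-like protein with ubiquitin-like domains, measured 1.33 and 0.769 FPKM against 5.13, 3.71 and 5.35 FPKM, with a log2 fold change of 1.48.

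Oas1a had the highest mean level of the family, at 3.37 and 6.12 FPKM in the controls and 13.5, 6.33 and 11.4 FPKM with G-CSF. G-CSF replicate 2 barely exceeded control replicate 2, and the log2 fold change of 0.98 ± 0.40 (SE) had a limma adjusted p of 0.395. Near-identical paralogs of Oas1a exist, and the authors' counting could have divided reads among them, so this value is uncertain. One of these, Oas1g, had values of 1.24 and 1.85 FPKM and 5.52, 2.24 and 4.23 FPKM. Oasl1, the OAS-like protein that restrains translation of Irf7 in mouse, had the smallest log2 fold change of the family, 0.51, with 0.454 and 0.995 FPKM against 1.47, 1.06 and 1.79 FPKM. These values rest on 11 and 9 reads in the controls and 33, 27 and 35 with G-CSF. The family thus ran from 0.51 to 1.66 on the log2 scale, with a median of 1.06.

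The member with the largest log2 fold change was Isg15, a ubiquitin-like protein that is secreted and also conjugated to other proteins. It measured 0.765 and 2.46 FPKM in the controls and 11.1, 8.05 and 7.61 FPKM with G-CSF. All 3 G-CSF libraries lay above both controls, and the 2 controls differed from each other more than the G-CSF libraries did on the log scale. The log2 fold change was 1.99 ± 0.36 (SE), with a limma adjusted p of 0.212. With only control replicate 1 as the reference it was 2.47, and with only control replicate 2 it was 1.50. The control values rest on few reads: with a gene length of 703 bases, the shortest that gives whole reads in every library, there were 5 and 6 reads in the controls and 67, 55 and 40 with G-CSF. Ranked by mean level among the 40 members, Isg15 was number 19 in the controls and number 10 with G-CSF.

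The other genes of ISG15 conjugation had smaller differences. Usp18, the protease that removes ISG15 and also blocks the type I interferon receptor, measured 1.04 and 1.65 FPKM against 1.96, 1.95 and 1.72 FPKM, a log2 fold change of 0.31 with an interval of -0.30 to 0.91. Trim25, a ubiquitin ligase that acts on ISG15 substrates and on the RNA sensor RIG-I, was among the 3 most abundant members. It measured 18.5 and 20.4 FPKM in the controls and 27.1, 28.9 and 27.1 FPKM with G-CSF, groups that do not overlap, with a log2 fold change of 0.49 ± 0.24 (SE) and a limma adjusted p of 0.441. Herc6, the main ISG15 ligase in mouse, was below 1 FPKM in every library and its groups overlap, with 0.833 and 0.310 FPKM against 0.939, 0.598 and 0.806 FPKM.

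The IFIT proteins bind foreign RNA ends and block its translation. All 3 were low, and in each the groups overlap. Ifit1 measured 0.729 and 0.109 FPKM in the controls and 1.53, 0.503 and 1.16 FPKM with G-CSF, where G-CSF replicate 2 lay below control replicate 1. For Ifit1 the log2 fold change was 0.54, with a 95% interval of -0.35 to 1.44. Ifit2 measured 1.31 and 1.32 FPKM against 2.07, 1.20 and 2.25 FPKM, a log2 fold change of 0.27. Ifit3, which has a near-identical copy in Ifit3b, measured 0.801 and 0.827 FPKM against 1.67, 0.943 and 0.766 FPKM. The Mx GTPases, which trap viral nucleocapsids and are defective in many laboratory strains, gave a similar picture. Mx1 measured 0.606 and 1.03 FPKM against 1.62, 0.976 and 1.86 FPKM, with control replicate 2 above G-CSF replicate 2, and a log2 fold change of 0.45. Mx2 measured 0.387 and 0.559 FPKM against 0.386, 0.456 and 0.296 FPKM.

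Among the sensors of foreign nucleic acid, Zbp1, Ifih1 and Eif2ak2 had every G-CSF library above both controls and Dhx58 did not. Zbp1, which detects Z-form nucleic acid and can start necroptosis, measured 0.792 and 0.409 FPKM in the controls and 3.63, 2.30 and 2.77 FPKM with G-CSF, groups that do not overlap. The log2 fold change of Zbp1 was 1.28 ± 0.27 (SE), with a limma adjusted p of 0.255. There were 26 and 5 reads in the controls and 110, 79 and 73 with G-CSF. Ifih1, which encodes the RNA sensor MDA5, measured 1.17 and 0.530 FPKM against 3.21, 2.90 and 3.32 FPKM, a log2 fold change of 1.18, and its groups do not overlap. Dhx58, which encodes the related helicase LGP2, had the highest mean level of the sensors, at 4.04 and 6.17 FPKM without and 5.30, 4.43 and 5.72 FPKM with G-CSF. All 3 G-CSF values lie between the 2 controls. The log2 fold change of Dhx58 was 0.03 with an interval of -0.62 to 0.68, and it turned negative under median centring (-0.03) and quantile normalization (-0.01). Without control replicate 1 it was -0.23, and without G-CSF replicate 3 it was -0.04. Eif2ak2, the kinase PKR that stops translation on double-stranded RNA, measured 3.60 and 3.44 FPKM against 5.26, 4.10 and 5.54 FPKM, a log2 fold change of 0.39.

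Enzymes that act on nucleotides or RNA differed among themselves. Of these 4 genes, Rsad2 and Samhd1 had all G-CSF libraries above the controls, Cmpk2 had all below, and Isg20 had overlapping groups. Rsad2, which encodes viperin, a maker of a chain-terminating nucleotide, measured 0.397 and 0.399 FPKM in the controls and 2.42, 1.28 and 2.41 FPKM with G-CSF. The controls are nearly equal, G-CSF replicate 2 is the lowest of the treated libraries, and the groups do not overlap. The log2 fold change was 1.09 ± 0.29 (SE), with a limma adjusted p of 0.292. Cmpk2, a mitochondrial nucleotide kinase that supplies the substrate of viperin, had the opposite sign, with 4.55 and 3.12 FPKM in the controls and 2.46, 2.52 and 2.76 FPKM with G-CSF. The log2 fold change of -0.42 ± 0.24 (SE) was the lowest of the members and did not pass, with a limma adjusted p of 0.490 and an interval of -1.02 to 0.18. The difference between Rsad2 and Cmpk2 was not itself tested. The genes are neighbours on chromosome 12 of GRCm38, 12751 bases apart and read away from each other, Rsad2 at chr12:26442746-26456452 on the minus strand and Cmpk2 at chr12:26469204-26479837 on the plus strand. In read numbers, Rsad2 had 16 and 6 reads in the controls and 90, 54 and 78 with G-CSF. Cmpk2 had 176 and 45 reads in the controls and 88, 102 and 86 with G-CSF.

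Samhd1, which depletes the nucleotide pool of the cell and thereby limits retroviruses, was the most abundant member in both groups. It measured 31.3 and 16.8 FPKM in the controls and 35.2, 33.3 and 31.8 FPKM with G-CSF, so that control replicate 1 was nearly level with the G-CSF libraries. Its log2 difference was 0.09 from control replicate 1 and 0.95 from control replicate 2. Isg20, an exonuclease, had overlapping groups, with 1.85 and 1.09 FPKM against 1.50, 2.38 and 1.08 FPKM. Isg20 had a log2 fold change of 0.09, which was -0.13 without control replicate 2, and -0.10 with G-CSF replicate 2 left out.

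The PARP members and their partner ligase formed a block on chromosome 16 in which every G-CSF library exceeded both controls for all 3 genes. Parp14, an ADP-ribosyltransferase, measured 4.97 and 2.85 FPKM in the controls and 13.5, 9.49 and 11.6 FPKM with G-CSF. For Parp14 the log2 fold change was 1.37 ± 0.30 (SE), with a limma adjusted p of 0.255. This gene had 430 and 92 reads in the controls and 1079, 859 and 807 with G-CSF, so its values rest on more reads than those of most members. Dtx3l, a ubiquitin ligase that works as a complex with Parp9, measured 5.97 and 6.45 FPKM against 12.4, 8.39 and 11.1 FPKM, a log2 fold change of 0.67. Parp9 measured 5.23 and 2.49 FPKM against 7.69, 7.09 and 6.15 FPKM, with control replicate 1 close under the G-CSF values, and had a log2 fold change of 0.77. Taken from each control in turn this was 0.35 and 1.19. Dtx3l and Parp9 lie head to head and overlap by 682 bases in the annotation. The sources used here do not give the strandedness of the libraries, so reads of the overlap cannot be told apart.

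The GBP and IRG families hold 8 members, of which 7 were tested. All 7 had a positive log2 fold change, with a median of 0.74, against a median of 0.70 for the 28 tested members outside these families. The difference between these sets was not tested. In all 7, control replicate 2 was below control replicate 1, as it was in 14 of the 28 others and in 56.0% of all genes tested. Their median log2 difference was 0.53 when set against control replicate 1 and 0.94 when set against control replicate 2. For the 28 others the medians were 0.77 and 0.63.

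Gbp2 had both the highest mean level and the smallest p of the GBPs, large GTPases that coat and rupture pathogen vacuoles. It measured 1.37 and 0.573 FPKM in the controls and 5.32, 2.90 and 4.36 FPKM with G-CSF. The groups do not overlap, although G-CSF replicate 2 was well under the other treated libraries. For Gbp2, limma gave a log2 fold change of 1.40 ± 0.33 (SE) and an adjusted p of 0.258, from 32 and 5 reads in the controls and 115, 71 and 82 with G-CSF. Its neighbours on chromosome 3 had smaller differences. Gbp3 measured 0.889 and 0.707 FPKM against 2.21, 1.35 and 2.58 FPKM, and Gbp7 0.977 and 0.514 FPKM against 1.89, 1.85 and 1.95 FPKM, each with a log2 fold change of 0.74. Gbp5, which promotes inflammasome assembly, was under 1 FPKM throughout, with 0.292 and 0.130 FPKM in the controls and 0.806, 0.341 and 0.705 FPKM with G-CSF. Its groups do not overlap, but they rest on 18 and 3 reads in the controls and 46, 22 and 35 with G-CSF. G-CSF replicate 2 was only slightly above control replicate 1.

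Of the IRG proteins, which act on the vacuoles and membranes of intracellular pathogens, Irgm2 had both the highest mean level and the smallest p. It measured 3.73 and 2.19 FPKM in the controls and 6.71, 5.88 and 4.96 FPKM with G-CSF, groups that do not overlap. For Irgm2 the log2 fold change was 0.81 ± 0.28 (SE), with a limma adjusted p of 0.354. Irgm1, a regulator of autophagy and of the other IRG proteins, measured 1.91 and 1.89 FPKM against 2.74, 1.82 and 2.85 FPKM, with G-CSF replicate 2 just under both controls. Its interval was -0.37 to 0.87. Igtp, also called Irgm3, measured 3.30 and 0.999 FPKM against 2.99, 1.53 and 3.11 FPKM, with the highest value in a control library. Igtp had a log2 fold change of 0.24, but -0.31 without control replicate 2. Ifi47 measured 3.26 and 1.40 FPKM against 4.66, 3.87 and 4.54 FPKM, groups that do not overlap, with a log2 fold change of 0.74, which was 0.33 from control replicate 1 and 1.15 from control replicate 2. For Irgm2 these values were 0.53 and 1.10. The bodies of Igtp and Irgm2 annotated in GENCODE M21 overlap by 7974 bases on the same strand. The RefSeq start of Irgm2, used for its promoter window, is a different one and lies beyond the end of Igtp. How the authors' counting treated reads of the overlap is not known, so both values are uncertain.

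The remaining members differ in function. Rtp4, a receptor chaperone that also restrains antiviral responses in mouse, had the smallest p of these. It measured 0.555 and 0 FPKM in the controls and 4.31, 1.88 and 2.82 FPKM with G-CSF, with 11 and 0 reads in the controls and 79, 39 and 45 with G-CSF. At the depth of control replicate 2 a count of 0 allows up to 3 reads, or 0.406 FPKM, by counting error alone. For Rtp4 the log2 fold change was 1.64 ± 0.37 (SE), with a limma adjusted p of 0.258. Trim30a, a ubiquitin ligase that dampens Toll-like receptor signalling in mouse, measured 8.08 and 3.30 FPKM against 17.7, 17.8 and 16.9 FPKM. The 3 G-CSF values are nearly equal while the controls differ by more than the G-CSF libraries do, with a log2 difference of 1.02 from control replicate 1 and of 2.10 from control replicate 2.

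Bst2, or tetherin, which holds budding virions at the cell surface and is also a marker of plasmacytoid dendritic cells, measured 11.8 and 18.5 FPKM in the controls and 26.5, 13.9 and 26.3 FPKM with G-CSF. G-CSF replicate 2 lay between the controls, and the log2 fold change of 0.50 had an interval of -0.46 to 1.46. Ifi27l2a measured 2.79 and 6.23 FPKM against 11.1, 6.66 and 12.7 FPKM, a log2 fold change of 1.05, or 1.51 from control replicate 1 and 0.58 from control replicate 2. Ifi35 measured 5.17 and 6.01 FPKM against 11.5, 8.40 and 9.83 FPKM, a log2 fold change of 0.72, and Xaf1, a pro-apoptotic partner of XIAP, 0.619 and 0.554 FPKM against 1.54, 0.877 and 1.88 FPKM, a log2 fold change of 0.59. In these 3 genes the groups do not overlap. Ifi44 had 2 to 6 reads in each library, at 0.0526 and 0.188 FPKM against 0.114, 0.0336 and 0.0654 FPKM.

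The level of the members varied among the G-CSF libraries as well. G-CSF replicate 2 was the lowest of the 3 for 24 of the 35 tested members, against 40.7% of all genes tested. It exceeded both controls for 27 of 35 members, while G-CSF replicates 1 and 3 each did so for 31. Of all genes tested, 35.3%, 31.5% and 33.4% exceeded both controls in G-CSF replicates 1, 2 and 3. Summed over all 40 genes, the level was 271.5, 213 and 253 FPKM in G-CSF replicates 1, 2 and 3 and 142 and 127 FPKM in the controls. G-CSF replicate 2 also had a higher sum of 7 erythroid genes, 781 FPKM against 89.3 and 112 FPKM in the other treated libraries, with 1351 and 351 FPKM in the controls. Its summed classical monocyte markers were the lowest of the treated libraries, at 3079 FPKM against 4860 and 5594 FPKM. Their part in the member values was not tested.

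The median absolute log2 difference between the controls was 0.45 over the tested members and 0.68 over all genes tested. The group difference exceeded that between the controls in 25 of 35 members, against 30.8% of all genes. When control replicate 1 was the only reference, 32 of the 35 had a positive log2 difference, with a median of 0.67. With control replicate 2 as the only reference 33 did, with a median of 0.81. These comparisons share the G-CSF libraries and are not independent of each other. Leaving out 1 library moved the log2 fold change by over 1.5 times, or turned its sign, for 18 of the 35 members. Removing control replicate 1 did so for 14 members and removing control replicate 2 for 12, while G-CSF replicates 1, 2 and 3 did so for 2, 6 and 4. Without control replicate 1 the log2 fold change was 0.12 for Usp18, 0.20 for Bst2, 0.28 for Mx1, 0.28 for Oasl1, 0.62 for Oas1a and -0.20 for Cmpk2. For Ifit1 it was 0.22 without control replicate 2. Oas2, Oas3, Oasl2, Isg15, Zbp1, Ifih1, Rsad2, Parp14, Gbp2 and Rtp4 are among the 17 that moved by less under all of the leave-one-out fits made for them.

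**Figure D4:**
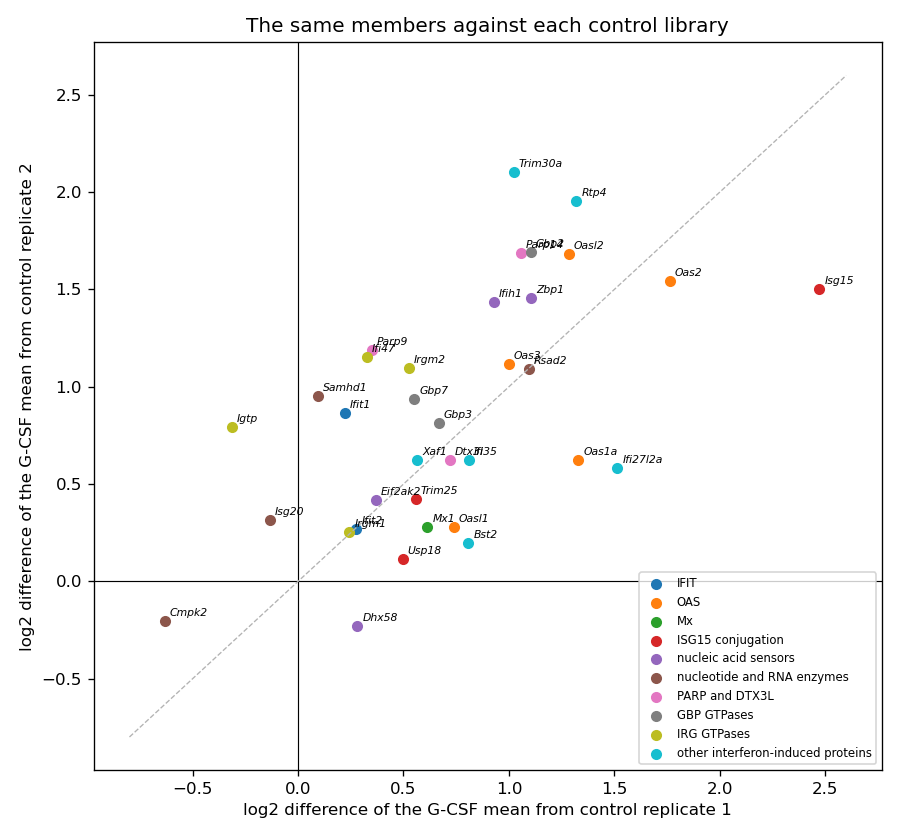
Log2 difference of the G-CSF mean from control replicate 1 (horizontal axis) and from control replicate 2 (vertical axis) on the log2(FPKM + 1) scale for the 35 tested members, coloured by subfamily, with the line of equality dashed. Most points lie above and to the right of 0, Igtp and Isg20 are negative against control replicate 1, Dhx58 against control replicate 2 and Cmpk2 against both.

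The genes upstream of the members were compared in the same fit. Of 40 pathway genes listed, 31 were tested, 1 was called higher and 0 were called lower by limma. With an unadjusted p under 0.05, 5 of the 31 were higher, and 2 were lower, against 7.90% and 4.76% of all genes tested. Their median log2 fold change was 0.38. The called gene was Socs3, a feedback inhibitor of cytokine receptors that is induced by Stat3, with 1.64 and 1.90 FPKM in the controls and 48.6, 61.6 and 55.9 FPKM with G-CSF and a limma adjusted p of 0.0454. Its log2 fold change of 4.34 ± 0.24 (SE) was 4.26 to 4.43 when 1 library was left out. Leaving out control replicate 2 ended the call (limma adjusted p = 0.0961), as did leaving out G-CSF replicate 1, 2 or 3 (limma adjusted p = 0.389, 0.157 and 0.370). The 8 interferon ligand genes listed were not found by symbol among the values used here, so their levels could not be read. Ifnar1, the signalling chain of the type I receptor, measured 18.2 and 15.8 FPKM against 33.0, 29.5 and 30.9 FPKM, a log2 fold change of 0.84, and was the receptor gene with the smallest p (limma adjusted p = 0.312).

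Irf7, which amplifies type I interferon production and is itself interferon-induced, measured 2.48 and 1.91 FPKM in the controls and 5.36, 3.10 and 6.30 FPKM with G-CSF. Irf7 had a log2 fold change of 0.86, with a limma adjusted p of 0.376. Sting1, the adaptor of cytosolic DNA sensing, measured 3.96 and 1.79 FPKM against 7.72, 8.10 and 8.34 FPKM, a log2 fold change of 1.28 with a limma adjusted p of 0.261. In Ifnar1, Irf7 and Sting1 the groups do not overlap. Ptpn6, a phosphatase that restrains JAK signalling and the most abundant gene of the list, measured 71.8 and 30.5 FPKM against 104, 96.3 and 99.7 FPKM. The 2 lower genes, named after their values were seen, were Ifnlr1 and Socs1. Ifnlr1, the specific chain of the interferon lambda receptor, measured 8.69 and 6.90 FPKM against 3.42, 5.70 and 2.08 FPKM, a log2 fold change of -0.96 with a limma adjusted p of 0.384. Socs1, a feedback inhibitor of interferon signalling, measured 3.66 and 7.64 FPKM against 2.40, 3.04 and 2.39 FPKM, a log2 fold change of -0.82 with a limma adjusted p of 0.387. In both every G-CSF library lay below both controls. Stat2 and Irf9, transcription factors of the type I response, were likewise singled out after their values were seen. Their log2 fold changes were 0.46 and 0.72, with groups that do not overlap.

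Relatives of the members outside the list were mostly under 1 FPKM. Of 17 further IFIT, OAS, GBP and IRG genes 5 passed the filter and limma called 0. The unadjusted p was under 0.05 for Oas1g, which was higher, and for Ifit1bl2, which was lower. Ifit1bl2 measured 4.15 and 1.03 FPKM in the controls and 0.242, 0.489 and 0.0794 FPKM with G-CSF, groups that do not overlap. For this gene the log2 fold change was -1.36 ± 0.45 (SE), with a limma adjusted p of 0.345. It was -2.03 from control replicate 1 and -0.69 from control replicate 2. The gene belongs to a family of close copies, so the value is uncertain. Gvin1, a giant interferon-inducible GTPase with the highest level of the relatives, measured 5.21 and 3.33 FPKM against 6.72, 4.93 and 5.66 FPKM. Gbp9 measured 1.31 and 1.00 FPKM against 1.35, 1.23 and 1.27 FPKM. Iigp1, an IRG GTPase strongly induced by interferon gamma and named here after its values were seen, had 1 to 3 reads in each library.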

How the data were processed

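Bulk RNA-seq of 5 mouse bone marrow monocyte libraries was used. The authors deposited FPKM values, 1 column per library, per the file headers. The submitters' processing notes name the build mm10 and 1 tool, Cell Ranger 5.0.1, made for single cells. Aligner, counter, annotation release and strandedness of the bulk libraries: not given in the sources used here. FPKM times the exon length in GENCODE M21 gave whole reads, within 0.001 reads, in 94.3% of rows matched by symbol, and their sums are lower bounds of depth. For Isg15, Mx1 and Mx2 the length was taken from the values. Coordinates are from GENCODE M21 (GRCm38), 1-based.

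Groups came from the labels. The test was limma 3.58.1 in R 4.3.3 with a trend, two-sided, on log2(FPKM + 1), for genes with at least 1 FPKM in at least 2 libraries, with p adjusted over all genes. Members, lists and tests were chosen with earlier results of these data known. In each subfamily the member with the smallest p and that with the highest level got a value in every library, and the remaining members were added so that all 40 are accounted for. No pair of replicates agreed within sampling noise (chi-square over degrees of freedom of 7.11 to 99.2). Alternatives were other pseudocounts, filters, scalings, moderation, a replicate block, protein-coding genes only, voom on recovered reads and leaving out each library. The values of 1 listed pathway gene are not reported here. Python 3.11.15 was used for the other steps.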

Additional observations from a re-analysis of the deposited data

How the results depend on the processing

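Under 17 alternatives, 571 log2 fold changes of the 35 tested members were recomputed, and 10 of them, in 3 genes, changed sign. These totals do not measure stability. Other filters, other moderation and protein-coding genes only leave a log2 fold change as it was by construction. The replicate block gave the same values as leaving out G-CSF replicate 3. Leaving out control replicate 2 gave the same values with and without the limit to protein-coding genes. Sign changes in those settings are therefore counted more than once. For Dhx58 the value was -0.0255 with median centring, -0.0149 with quantile normalization, -0.0402 with the replicate block, and -0.227 to 0.280 over the settings that leave out 1 library (lowest when control replicate 1, and -0.0402 when G-CSF replicate 3, was left out). For Isg20 the leave-one-out range was -0.133 (no control replicate 2, also with protein-coding genes only) to 0.317, with -0.0970 when G-CSF replicate 2 was left out. For Igtp it was -0.313 (no control replicate 2, also with protein-coding genes only) to 0.792. The cause was not tested.

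The number of members called higher was 0, but 1 with protein-coding genes only and 2 (Oas2 and Isg15) when control replicate 2 was also left out. It ranged from 0 to 15 over the settings that leave out 1 library. The number of all genes called higher was 1, and it was 3 with a pseudocount of 0.1, 2 with a minimum of 5 FPKM or without the trend, 8 with voom and 30 with protein-coding genes only (111 also without control replicate 2). It was 0 with a pseudocount of 5, no filter, median centring, quantile normalization or the replicate block. Leaving out 1 library gave 0 to 2834 higher and 0 to 1977 lower. All genes called lower numbered 0, and 2 with voom, 3 with protein-coding genes only and 36 when control replicate 2 was also left out.

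The count of members at an unadjusted p under 0.05 was 17, and 11 with a minimum of 5 FPKM, where 17 members were tested, all 17 were positive and 11.5% of all genes were past that p and higher. It was 9 with the replicate block (3.36% of all genes), 21 with protein-coding genes only (10.4%), 21 when control replicate 2 was also left out (16.2%) and 11 to 17 over the settings that leave out 1 library (3.14% to 27.9%). The members' median log2 fold change was 0.74, 0.997 with a pseudocount of 0.1, 0.422 with a pseudocount of 5 and 1.15 with voom, whose scale adds no pseudocount of 1. Nothing in the labels pairs same-numbered libraries, and the test did not pair them. The correlation of their deviations from the group means was -0.071 for number 1 and -0.231 for number 2 over 16791 genes. With 2 controls, 1 deviation is the mirror of the other, so these correlations are not independent and cannot decide whether the numbers pair the libraries. Depth limits the low members: in control replicate 2, Isg15 and Rsad2 rest on 6 reads each and Zbp1 and Gbp2 on 5 each.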
